A study of Mus musculus with 12 samples.

Results

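The transcriptome of 3T3-L1 preadipocytes transfected with siRNA against Prmt1 (siPRMT1) was followed from day 1 to day 3 of adipogenic induction. The 6 siPRMT1 libraries, 3 on day 1 and 3 on day 3, were taken by their labels from the 12 libraries of the study, and all 14224 genes that passed a filter on low counts entered the comparison. The other 6 libraries, from cells given a control siRNA (siCtrl) and collected on the same days, were used only to set the siPRMT1 course beside the course in control cells. The question was how far differentiation proceeded when Prmt1 was depleted.

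3T3-L1 is a mouse embryonic fibroblast line that turns into fat cells in culture. All 4 groups were cells of this line, transfected and then given DMI, a mixture of dexamethasone (a glucocorticoid), IBMX (a phosphodiesterase inhibitor that raises cAMP) and insulin. The labels name the 24 h samples (day 1) as the stage of mitotic clonal expansion and the 72 h samples (day 3) as the stage of differentiation, and both days lie within the DMI phase. Everything was therefore measured in a single cell line in culture. Replicates were numbered 1 to 3 within a group, and nothing in the sources says that they were separate cultures, so the p-values measure only the spread between these samples. Values below are given in the order of replicates 1, 2 and 3, with n = 3 in each group.

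PRMT1 is the main enzyme that places asymmetric dimethyl marks on arginine in histones and other proteins. Growth-arrested 3T3-L1 cells given the hormonal mixture first re-enter the cell cycle, a phase driven together with C/EBPβ and C/EBPδ, and then switch on PPARγ and C/EBPα. These last factors turn on the genes of lipid storage, insulin response and hormone secretion, while genes of the fibroblast-like precursor, its matrix and its immediate hormone response are turned down.

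The study lists 3 purchased siRNAs against Prmt1, and which of them was used for sequencing is not given in the sources used here. Their sense strands are shown because they define the depletion. Each matched 25 bases of coding sequence on the minus strand of chromosome 7 in GRCm38, in exons 4, 10 and 7 of the 11 exons of transcript Prmt1-202, and the matches covered 7, 7 and 6 of the 10 protein-coding Prmt1 transcripts of GENCODE M21.
siPRMT1-1, chr7:44981826-44981850: ccauguuucacaaucggcaucucuu
siPRMT1-2, chr7:44977511-44977535: ccauuggaaugaggcccaaugccaa
siPRMT1-3, chr7:44978900-44978924: cagccauugaggaccgacaauauaa
In the sequenced siPRMT1 cells Prmt1 read 43.8, 38.6 and 41.4 FPKM on day 1 and 62.02, 71.7 and 68.5 FPKM on day 3, against 82.9, 83.4 and 91.3 FPKM on day 1 and 111, 120.4 and 140.2 FPKM on day 3 in siCtrl cells (FPKM, fragments per kilobase of gene scaled to the library total). Prmt1 was thus lowered on both days, but not removed, and the 3 siPRMT1 libraries of each day lay below all siCtrl libraries of that day. Between the days Prmt1 itself rose in siPRMT1 cells (log2 0.69 ± 0.069 SE, edgeR adjusted p = 9.3e-07), and its rise did not differ detectably from that in siCtrl cells (difference 0.24 ± 0.13 SE, edgeR adjusted p = 0.243).

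Library totals lay between 21572263 and 26878683 counts in siPRMT1 cells and between 15116462 and 42357137 in siCtrl cells. A count of 0 in a siPRMT1 library allowed a level of up to 0.112 to 0.139 CPM (3 counts of its total, counting error only). Among the 6 siPRMT1 libraries the chi-square per gene lay between 4.14 and 15.83 for pairs of replicates. Replicate 1 of siPRMT1 day 3 lay furthest from its partners (10.38 and 15.83), which were at 5.58 from each other. Replicate 3 of siCtrl day 1 stood apart from its group (50.64 and 30.81 against its partners, 4.14 to 15.83 for all other pairs), so counts of differing courses are also given without it, as is the difference of any single gene named for it that it moved by over 1.5 times. In these bulk samples a smaller share of cells expressing a gene and less RNA per cell cannot be told apart.

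Between day 1 and day 3 the siPRMT1 transcriptome was rebuilt on a broad front. A gene was called where edgeR's adjusted p was under 0.05 and the log2 fold change was over 0.5 in size. By this rule 2705 genes (19.0% of those tested) were higher on day 3 and 2481 (17.4%) were lower, 36.5% in all. The strong changes were mostly rises. 508 genes rose more than 4-fold and 178 fell as much, 286 rose and 43 fell more than 8-fold, and 158 rose and 14 fell more than 16-fold. Of the 5186 called genes, 5106 had days that did not overlap in any library, as did 9487 (66.7%) of all genes tested. Libraries of 1 day were thus so alike that small differences were called, and the median log2 fold change over all genes was 0.002.

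**Figure D1:**
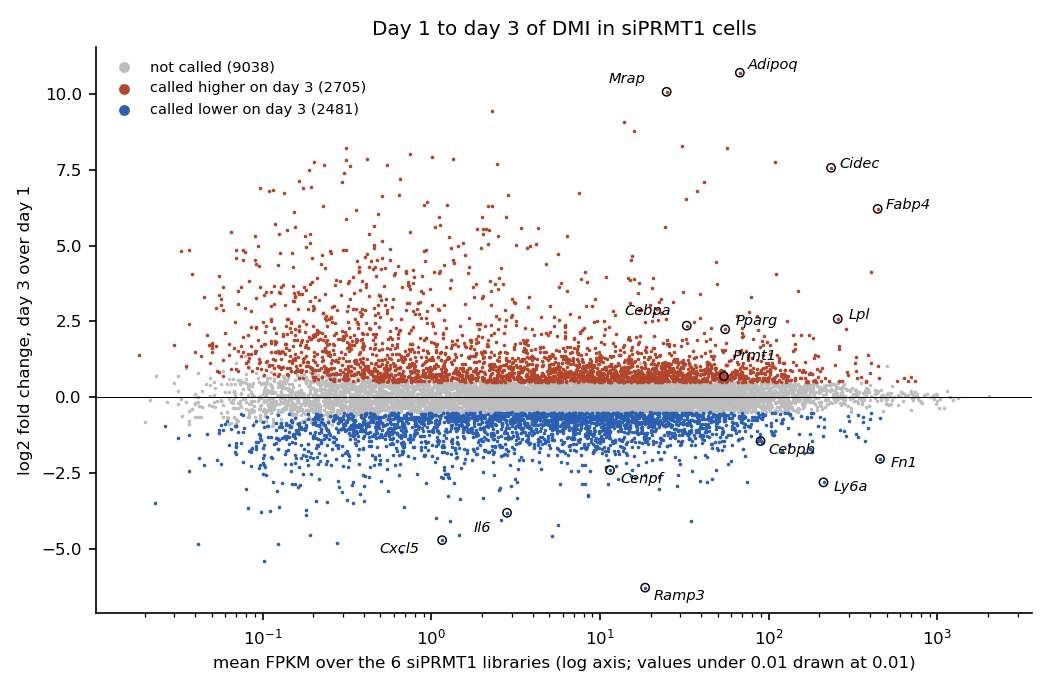
Log2 fold change from day 1 to day 3 in siPRMT1 cells (vertical axis) against the mean FPKM over the 6 siPRMT1 libraries (horizontal, log axis), 1 point a gene, for 14224 genes. The 2705 genes called higher reach a log2 fold change above 10 (Adipoq), whereas the 2481 called lower end near -6 (Ramp3).

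Of the 10 largest rises, 7 were in known products of the fat cell. Adipoq, which encodes adiponectin, read 0.03, 0.12 and 0.07 FPKM on day 1 and 139, 131 and 134 FPKM on day 3 and changed most of all (log2 10.7 ± 0.14 SE, edgeR adjusted p = 7.7e-15). On day 1 its 3 libraries held 7 counts together against 12005 on day 3, a ratio of 1770 with a counting interval (95%) of 856 to 4390. Mrap, a melanocortin receptor accessory protein of adipocytes, went from 0.04, 0 and 0.08 FPKM to 44.9, 52.1 and 52.04 FPKM, or from 3 to 3583 counts (ratio 1230, interval 420 to 5960). Both genes were thus at the edge of detection on day 1 and among the clearly expressed genes on day 3, with no overlap of days. Lgals12, a lipid droplet-associated galectin, went from 1 to 929 counts (ratio 956, interval 171 to 37800), and Adig, adipogenin, from 2 to 1261 (ratio 649, interval 179 to 5360). These intervals are wide at the upper end because so few counts stood on day 1, and they cover counting error only. A530016L24Rik, of which no role is given here, read 0.07, 0.07 and 0.07 FPKM on day 1 and 29.3, 32.8 and 32.9 FPKM on day 3 (log2 8.77 ± 0.13 SE, edgeR adjusted p = 1.4e-14). The remaining members, Cfd, Plin1 and G0s2, are described with their groups, and 4930511E03Rik and Slc39a4, a zinc transporter, went from 1 to 328 and from 2 to 539 counts (ratios 338 and 277, intervals 60.2 to 13400 and 76.4 to 2300).

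Among the regulators Pparg and Cebpa rose, and Cebpb, Klf4 and Klf5 fell. Of 30 adipogenic transcription factors and cofactors tested, 12 rose and 6 fell, beside 19.0% and 17.4% of all genes, and the list's median log2 fold change was 0.14. Pparg, the receptor at the centre of the programme, read 18.8, 18.6 and 20.1 FPKM on day 1 and 89.3, 93.1 and 91.7 FPKM on day 3 (log2 2.24 ± 0.056 SE, edgeR adjusted p = 1.1e-12). Its partner Cebpa read 10.8, 9.78 and 11.2 FPKM on day 1 and 52.8, 56.4 and 55.3 FPKM on day 3 (log2 2.36 ± 0.066 SE, edgeR adjusted p = 3.0e-12). Both days were well apart in both genes, and the 3 libraries of a day lay close together. Nr1h3, which encodes the sterol receptor LXRα, read 1.93, 1.57 and 1.84 FPKM on day 1 and 25.4, 28.7 and 28.7 FPKM on day 3 (log2 3.95 ± 0.097 SE, edgeR adjusted p = 9.7e-13). Ppargc1b, a coactivator of mitochondrial genes, rose from 0.25, 0.26 and 0.25 to 4.61, 4.74 and 5.34 FPKM (log2 4.25 ± 0.099 SE, edgeR adjusted p = 6.8e-13). Its relative Ppargc1a rose from 0.28, 0.37 and 0.31 to 0.62, 0.57 and 0.62 FPKM (log2 0.88 ± 0.13 SE). Klf15, a factor that acts late in adipogenesis, was scarcely detected on day 1 at 0.05, 0.05 and 0.08 FPKM and read 1.39, 1.1 and 1.16 FPKM on day 3 (log2 4.32 ± 0.22 SE, edgeR adjusted p = 1.1e-09). These genes rose from very different starting levels. Smaller rises were those of Xbp1 (log2 1.66 ± 0.056 SE), Zfp423 (log2 1.51 ± 0.11 SE), Ebf2 (log2 0.896 ± 0.11 SE), Srebf1 (log2 0.79 ± 0.07 SE), Stat5a (log2 0.65 ± 0.075 SE) and Zbtb16 (log2 0.58 ± 0.067 SE).

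Cebpb and Klf4 were among the 6 members that fell. Cebpb, which starts the cascade, read 125, 98.5 and 169 FPKM on day 1 and 37.99, 55.8 and 51.5 FPKM on day 3 (log2 -1.44 ± 0.16 SE, edgeR adjusted p = 3.0e-06), and its days did not overlap although the day 1 libraries were uneven. Klf4, an early inducer of Cebpb, fell from 15.8, 16.3 and 16.5 to 5.27, 7.06 and 7.01 FPKM (log2 -1.34 ± 0.094 SE, edgeR adjusted p = 2.8e-08). Klf5 fell from 22.5, 21.3 and 26.2 to 8.24, 10.9 and 11.1 FPKM (log2 -1.22 ± 0.11 SE, edgeR adjusted p = 2.8e-07). Nfil3, a cAMP-responsive repressor, fell from 25.7, 24.2 and 25.8 to 8.42, 9.29 and 9.5 FPKM (log2 -1.49 ± 0.064 SE, edgeR adjusted p = 1.9e-10). Nfia and Creb1 fell less (log2 -0.74 ± 0.066 and -0.57 ± 0.068 SE). Cebpd, the partner of Cebpb, was not called, with 47.3, 42.01 and 56.8 FPKM on day 1 and 28.5, 39.4 and 40.7 FPKM on day 3 and a log2 fold change of -0.44 ± 0.12 SE. The other 11 members tested but not called had log2 fold changes between -0.42 (Bcl6) and 0.45 (Zfp467), among them Rxra at -0.088 and the glucocorticoid receptor Nr3c1 at 0.12, and Mlxipl and Prdm16 did not pass the filter, with at most 0.05 FPKM in any siPRMT1 library.

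**Figure D2:**
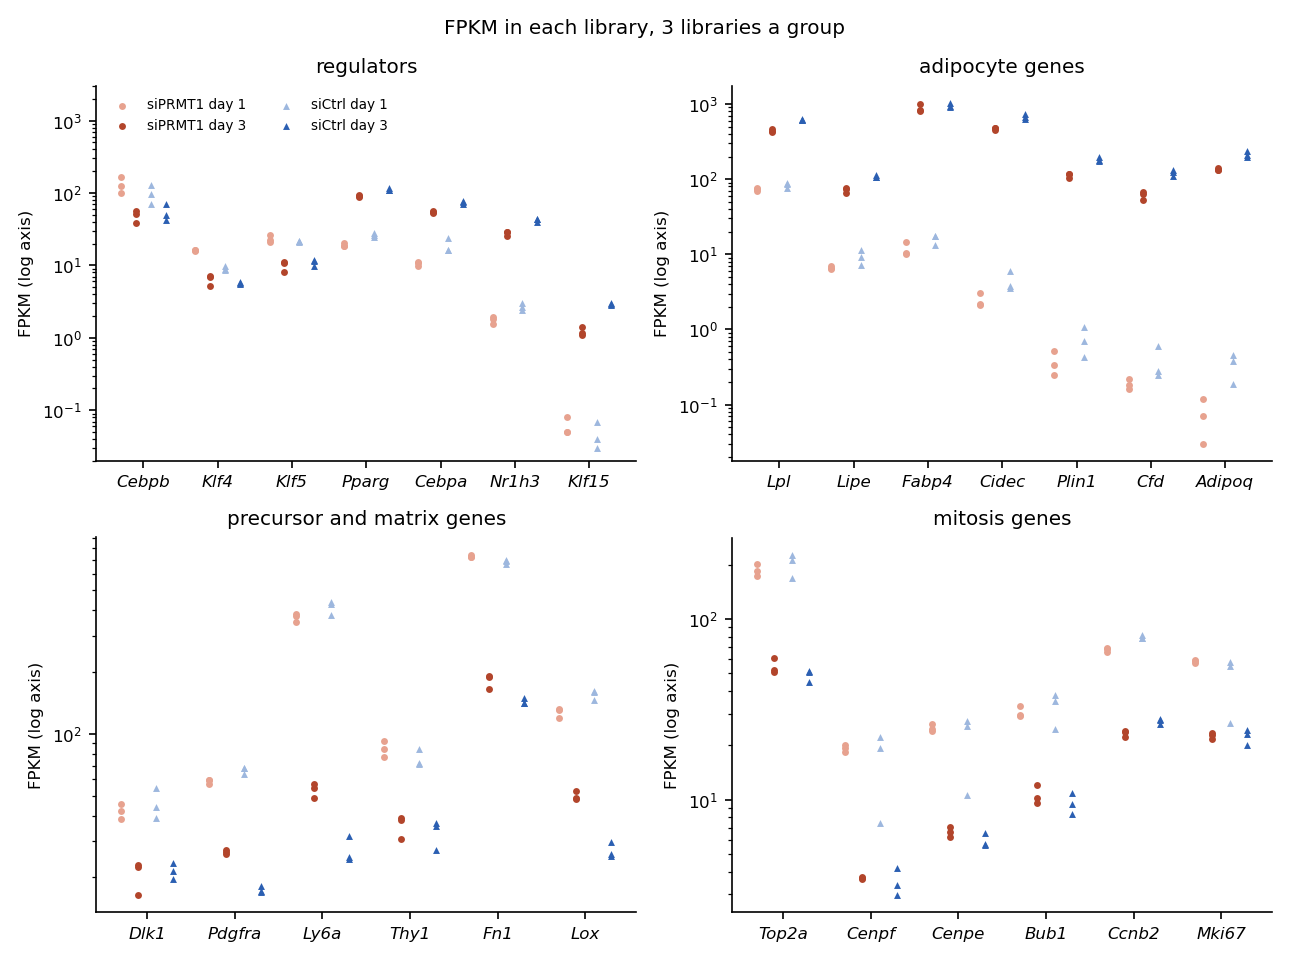
FPKM (log axis) of named genes in each library, 3 points a group, for siPRMT1 day 1 and day 3 (circles) and siCtrl day 1 and day 3 (triangles). In siPRMT1 cells Cebpb, Klf4 and Klf5 are lower on day 3, Pparg, Cebpa, Nr1h3, Klf15 and the adipocyte genes are higher, and the precursor, matrix and mitosis genes are lower, with no overlap of days. 1 siCtrl day 1 library lies low for Cenpf, Cenpe and Mki67.

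The machinery of fat storage rose almost as a whole. In triglyceride synthesis 13 (81.2%) of 16 genes tested rose and none fell, with a median log2 fold change of 2.16. Acsl1, which activates fatty acids, read 12.3, 12.4 and 12.3 FPKM on day 1 and 216, 203 and 212 FPKM on day 3 (log2 4.08 ± 0.06 SE, edgeR adjusted p = 1.4e-14). Dgat2, which makes the triglyceride itself, read 4.32, 4.1 and 4.11 FPKM on day 1 and 88.0, 95.5 and 98.1 FPKM on day 3 (log2 4.48 ± 0.073 SE, edgeR adjusted p = 2.1e-14). Gpd1, the source of the glycerol backbone, rose from 0.49, 0.63 and 0.89 to 57.99, 65.1 and 68.0 FPKM (log2 6.55 ± 0.13 SE, edgeR adjusted p = 1.1e-13). These 3 genes had the smallest adjusted p in their list, and their libraries of each day differed little. Agpat9, Agpat2, Dgat1 and Lpin1 followed with log2 fold changes of 3.91, 3.32, 2.27 and 2.05. Pck1, the enzyme of glyceroneogenesis, had no count on day 1 and 41 on day 3, at least 14.1-fold higher against a floor of 3 counts over the group.

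Lipid droplet proteins gave 9 rises and no fall among 14 genes tested (median 0.92). Cidec, which drives droplet fusion, read 2.18, 2.14 and 3.01 FPKM on day 1 and 445, 479 and 476 FPKM on day 3 (log2 7.57 ± 0.103 SE, edgeR adjusted p = 7.7e-15). Plin1, the droplet coat of mature adipocytes, read 0.25, 0.34 and 0.52 FPKM on day 1 and 104, 115 and 119 FPKM on day 3 (log2 8.22 ± 0.13 SE, edgeR adjusted p = 1.7e-14), and G0s2, an inhibitor of the lipase ATGL, rose from 1.27, 0.66 and 1.08 to 215, 227 and 208 FPKM (log2 7.75 ± 0.12 SE, edgeR adjusted p = 1.7e-14). The steepest rises were thus in droplet proteins typical of fat cells, and the coat protein Plin4 rose from 18.3, 15.6 and 18.2 to 103, 117 and 116 FPKM (log2 2.68 ± 0.074 SE, edgeR adjusted p = 2.4e-12). The caveolar genes Cav1, Cav2 and Ptrf rose by log2 0.62, 1.22 and 0.52.

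The enzymes that break fat down rose alongside those that lay it down. 9 of 12 lipases, carboxylesterases and their regulators rose and none fell (median 2.85, the highest of the lists of biology). Lpl, the lipoprotein lipase, read 68.7, 73.8 and 76.3 FPKM on day 1 and 461, 433 and 428 FPKM on day 3 (log2 2.58 ± 0.06 SE, edgeR adjusted p = 7.1e-13). Lipe, the hormone-sensitive lipase, read 6.43, 6.58 and 7.09 FPKM on day 1 and 66.3, 73.8 and 75.5 FPKM on day 3 (log2 3.41 ± 0.069 SE, edgeR adjusted p = 1.6e-13). Pnpla2, the triglyceride lipase ATGL, read 20.96, 16.97 and 19.4 FPKM on day 1 and 120.2, 139.7 and 142 FPKM on day 3 (log2 2.797 ± 0.085 SE, edgeR adjusted p = 6.6e-12). Lpl was already well expressed on day 1, whereas Mgll, the monoglyceride lipase, was not, at 0.27, 0.25 and 0.24 FPKM against 3.35, 3.48 and 3.45 FPKM on day 3. Ces1f and Ces1d, neighbouring carboxylesterases whose reads the counting could split, rose by log2 3.42 and 5.03.

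Fatty acid uptake and activation held 8 rises and 2 falls among 14 genes (median 0.67). Fabp4, the fatty acid-binding protein of adipocytes, read 10.4, 10.2 and 14.6 FPKM on day 1 and 997, 827 and 799 FPKM on day 3 (log2 6.21 ± 0.13 SE, edgeR adjusted p = 3.0e-13) and was the highest of the adipocyte marker genes on day 3. Cd36, a fatty acid receptor, read 0.50, 0.62 and 0.67 FPKM on day 1 and 96.8, 78.4 and 70.9 FPKM on day 3 (log2 7.09 ± 0.15 SE, edgeR adjusted p = 2.3e-13), and Fabp5 went from 45.95, 41.1 and 44.5 to 867, 728 and 702 FPKM (log2 4.12 ± 0.092 SE). The members that fell were Acsl4 (log2 -1.04 ± 0.087 SE) and Acot1 (log2 -1.73 ± 0.22 SE). In de novo lipogenesis 12 (54.5%) of 22 genes rose and 2 (9.09%) fell (median 0.57). Thrsp, a lipogenic nuclear protein, rose from 0.12, 0.17 and 0.11 to 13.7, 15.4 and 15.9 FPKM (log2 6.75 ± 0.19 SE, edgeR adjusted p = 2.6e-12). Scd1, the stearoyl-CoA desaturase, rose from 70.1, 70.5 and 71.7 to 237, 198 and 213 FPKM (log2 1.597 ± 0.069 SE, edgeR adjusted p = 2.1e-10). Me1, malic enzyme, rose from 17.6, 19.2 and 18.2 to 56.3, 52.6 and 50.4 FPKM (log2 1.52 ± 0.066 SE, edgeR adjusted p = 2.0e-10). Scd1 was already abundant on day 1, whereas Thrsp was not. The elongases Elovl5 and Elovl6 fell (log2 -0.83 ± 0.059 and -0.81 ± 0.065 SE).

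Secreted products and receptors of the fat cell appeared over the same interval. 15 of 25 adipokines and secreted proteins rose and 2 fell, Ccl2 and Vegfa (median 1.36). Retn, resistin, read 0.63, 0.78 and 0.58 FPKM on day 1 and 77.5, 74.2 and 73.04 FPKM on day 3 (log2 6.79 ± 0.11 SE, edgeR adjusted p = 2.0e-14). Cfd, the complement factor adipsin, read 0.18, 0.16 and 0.22 FPKM on day 1 and 53.3, 67.9 and 63.2 FPKM on day 3 (log2 8.297 ± 0.17 SE, edgeR adjusted p = 2.5e-13). Agt, angiotensinogen, was already expressed at 22.8, 20.7 and 28.3 FPKM and reached 240.4, 288 and 298 FPKM (log2 3.51 ± 0.11 SE, edgeR adjusted p = 6.8e-12). C3, the complement component that adipsin helps to activate, went from 104, 96.9 and 98.2 to 455, 492 and 474 FPKM (log2 2.24 ± 0.055 SE, edgeR adjusted p = 9.2e-13). The secretory genes were therefore of 2 kinds, those near 0 on day 1 and those merely raised. Leptin (Lep) stayed below the filter, with no count on day 1 and 24 counts on day 3. Among adipocyte hormone and metabolite receptors 10 of 15 tested rose and 1, Oxtr, fell (median 1.62). The ACTH receptor Mc2r, partner of Mrap, rose from 0.21, 0.26 and 0.22 to 7.43, 7.52 and 7.43 FPKM (log2 4.98 ± 0.15 SE, edgeR adjusted p = 5.2e-12). Hcar1, the lactate receptor, rose from 1 to 354 counts (ratio 364, interval 65.0 to 14400). Adrb3, the adrenergic receptor of mature fat cells, was not tested, at 2 counts on day 1 and 25 on day 3.

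The list of adipocyte markers summed up these changes: all 9 markers tested rose, at a median log2 fold change of 6.79, and the 10th, Lep, is given above. Slc2a4, the insulin-responsive glucose transporter GLUT4, went from 2 to 230 counts (ratio 118, interval 32.4 to 983), or from 0.01, 0.01 and 0 to 1.02, 1.03 and 1.0 FPKM, a low level on day 3 beside the other markers. The insulin signalling list had a small median log2 fold change of 0.095. Of its 24 genes 7 (29.2%) rose and 3 (12.5%) fell, beside 19.0% and 17.4% of all genes. Irs1, an adaptor of the insulin receptor, rose from 3.43, 3.23 and 3.05 to 10.96, 11.6 and 12.3 FPKM (log2 1.83 ± 0.071 SE, edgeR adjusted p = 7.1e-11). Igf2r, Pde3b and Trib3 fell (log2 -1.06 ± 0.061, -0.69 ± 0.073 and -1.16 ± 0.07 SE).

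**Figure D3:**
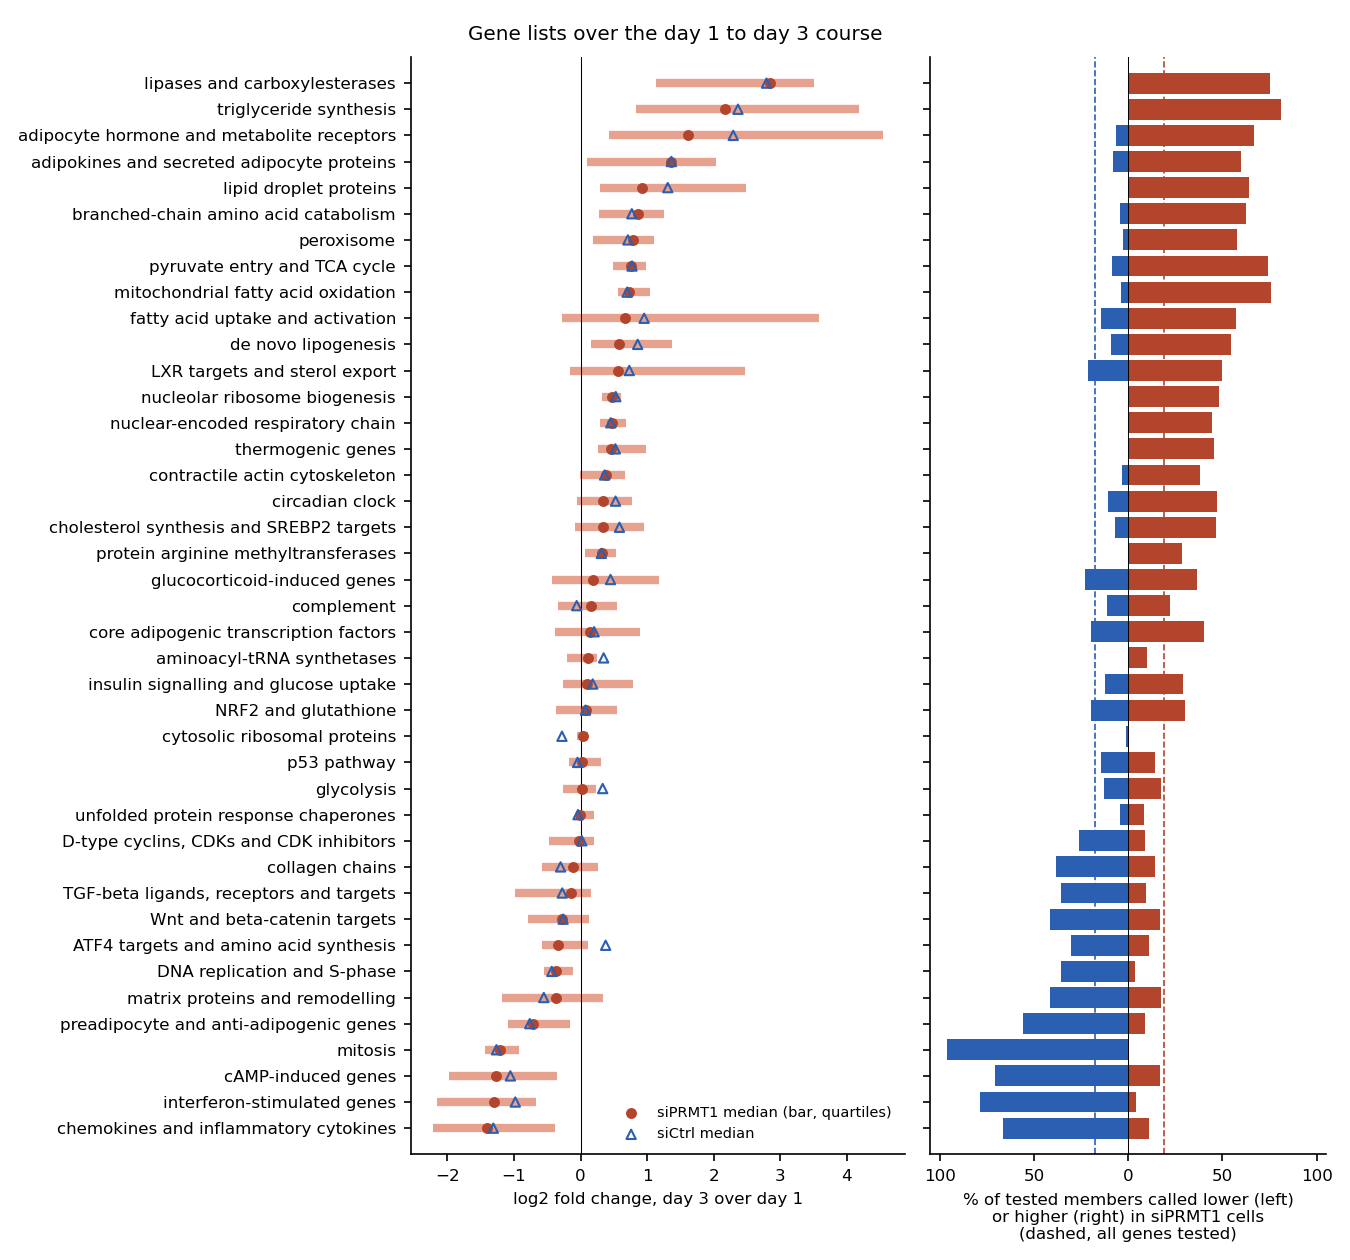
Left, median log2 fold change from day 1 to day 3 of each gene list in siPRMT1 cells (circles, bars from the lower to the upper quartile of the members) and in siCtrl cells (triangles). Right, percent of tested members called lower and higher in siPRMT1 cells, with dashed lines at 17.4% and 19.0%, the shares of all genes tested. Lists of fat storage lie at the top, and those of mitosis, cAMP response, interferon and chemokines at the bottom.

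Mitochondrial and peroxisomal genes rose in large numbers and by modest amounts. In the TCA cycle and pyruvate entry 26 (74.3%) of 35 rose and 3 fell (median 0.76). In mitochondrial fatty acid oxidation 19 of 25 rose and 1 fell (median 0.73). In peroxisomes 19 (57.6%) of 33 rose and 1 fell (median 0.78). In branched-chain amino acid catabolism 15 (62.5%) of 24 rose and 1 fell (median 0.86). The nuclear-encoded respiratory chain had 32 (44.4%) rises and no fall among 72 (median 0.47). Pcx, pyruvate carboxylase, read 56.2, 51.5 and 54.4 FPKM on day 1 and 207, 231 and 239 FPKM on day 3 (log2 2.05 ± 0.064 SE, edgeR adjusted p = 8.5e-12). Hadh, of fatty acid oxidation, went from 52.02, 48.9 and 50.9 to 135, 133 and 137 FPKM (log2 1.401 ± 0.056 SE, edgeR adjusted p = 1.0e-10). Bcat2, the mitochondrial branched-chain transaminase, went from 16.4, 14.9 and 15.8 to 55.2, 61.4 and 60.6 FPKM (log2 1.898 ± 0.064 SE, edgeR adjusted p = 1.9e-11) while its cytosolic counterpart Bcat1 fell from 10.3, 10.6 and 11.5 to 3.04, 3.37 and 3.5 FPKM (log2 -1.72 ± 0.07 SE, edgeR adjusted p = 1.1e-10). These paired enzymes thus moved in opposite directions. Pex11a, a peroxisome proliferation factor, rose from 2.33, 2.51 and 2.64 to 39.7, 39.1 and 37.2 FPKM (log2 3.94 ± 0.075 SE, edgeR adjusted p = 1.1e-13), the steepest of its list among the members with the smallest p. Uqcrfs1, the Rieske subunit of the respiratory chain, went from 65.98, 65.8 and 65.4 to 178, 159 and 153 FPKM (log2 1.301 ± 0.068 SE). Against the trend Pdk4, a brake on pyruvate oxidation, Pdp1 and Cpt1c fell (log2 -1.16 ± 0.06, -1.19 ± 0.06 and -1.54 ± 0.11 SE). Thermogenic genes gave 5 rises and 0 falls among 11 tested. The brown-fat genes Ucp1, Cidea, Cox8b and Dio2 did not pass the filter, at 0 to 0.11 FPKM in every siPRMT1 library. Members of this list with few counts on day 1 moved both ways. Elovl3 went from 4 to 346 counts (ratio 89.0, interval 34.5 to 329), Ucp3 from 9 to 39, Ckb from 6 to 36 and Ppara from 4 to 21. Dio2 went from 8 to 1 and Tnfrsf9 from 8 to 2.

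Most genes that cAMP induces were lower on day 3. Of 24 cAMP-induced genes 17 (70.8%) fell and 4 rose, at a median log2 fold change of -1.27. Pde10a, a cyclic nucleotide phosphodiesterase, read 4.39, 4.68 and 4.38 FPKM on day 1 and 0.53, 0.56 and 0.54 FPKM on day 3 (log2 -3.06 ± 0.075 SE, edgeR adjusted p = 9.2e-13). Nr4a1, an orphan nuclear receptor, read 29.6, 31.3 and 33.4 FPKM on day 1 and 4.81, 5.67 and 5.55 FPKM on day 3 (log2 -2.57 ± 0.073 SE, edgeR adjusted p = 3.6e-12). Fosl2, an AP-1 subunit, read 50.3, 49.5 and 47.3 FPKM on day 1 and 10.6, 10.6 and 11.1 FPKM on day 3 (log2 -2.203 ± 0.06 SE, edgeR adjusted p = 2.0e-12). The phosphodiesterases Pde4d and Pde4b fell likewise (log2 -2.06 ± 0.064 and -1.82 ± 0.066 SE), and the members that rose were Dusp4, Atf3, Ppargc1a and Id1. Glucocorticoid-induced genes were split, with 8 rises and 5 falls among 22 (median 0.18). Dusp1, Sgk1 and Tsc22d3 fell (log2 -2.05 ± 0.066, -1.14 ± 0.065 and -0.83 ± 0.055 SE), whereas Hsd11b1, which regenerates active glucocorticoid, rose from 5.17, 5.71 and 5.0 to 36.7, 37.9 and 34.6 FPKM (log2 2.77 ± 0.084 SE, edgeR adjusted p = 6.3e-12). The single largest fall among genes of at least 1 FPKM was Ramp3, a receptor activity-modifying protein of calcitonin-family receptors, with 34.7, 38.5 and 36.6 FPKM on day 1 and 0.44, 0.45 and 0.53 FPKM on day 3 (log2 -6.28 ± 0.12 SE, edgeR adjusted p = 1.2e-13). Syt13, a synaptotagmin, and Slpi, a secreted protease inhibitor, fell from 9.22, 10.7 and 10.1 to 0.38, 0.46 and 0.43 FPKM and from 67.05, 62.4 and 65.4 to 3.65, 3.37 and 4.63 FPKM (log2 -4.56 ± 0.12 and -4.08 ± 0.105 SE).

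Genes of the fibroblast-like precursor and its matrix went down. Of 34 preadipocyte and anti-adipogenic genes 19 (55.9%) fell and 3, Klf2, Wnt6 and Sfrp5, rose (median -0.72), and 7 of 8 preadipocyte markers fell (median -1.099). Ly6a, a surface marker of mesenchymal precursors, read 350.0, 385 and 374 FPKM on day 1 and 54.5, 56.9 and 48.8 FPKM on day 3 (log2 -2.804 ± 0.07 SE, edgeR adjusted p = 1.1e-12). Pdgfra, the PDGF receptor of precursors, read 59.6, 59.7 and 56.7 FPKM on day 1 and 25.98, 27.2 and 26.6 FPKM on day 3 (log2 -1.16 ± 0.055 SE, edgeR adjusted p = 5.0e-10). Dlk1, the preadipocyte factor that holds back adipogenesis, read 42.2, 38.5 and 45.7 FPKM on day 1 and 16.3, 23.02 and 22.4 FPKM on day 3 (log2 -1.04 ± 0.103 SE, edgeR adjusted p = 9.2e-07). Precursor transcripts were hence reduced on day 3 and still present. Thy1 and Col3a1 fell too (log2 -1.25 ± 0.086 and -0.52 ± 0.054 SE), and Pdgfrb was the marker that was not called (log2 -0.16 ± 0.07 SE). Among matrix proteins and their remodelling enzymes 19 (41.3%) of 46 fell and 8 (17.4%) rose (median -0.37). Fn1, fibronectin, read 747, 731 and 723 FPKM on day 1 and 165, 188 and 191 FPKM on day 3 (log2 -2.03 ± 0.058 SE, edgeR adjusted p = 3.6e-12), and Fbln5 and Fbn1, of elastic fibres, fell as well (log2 -2.38 ± 0.07 and -2.11 ± 0.061 SE). Timp4, an inhibitor of metalloproteinases, rose from 0.27, 0.40 and 0.24 to 12.1, 12.8 and 12.4 FPKM (log2 5.31 ± 0.14 SE, edgeR adjusted p = 2.0e-12). Collagen chains gave 3 rises and 8 falls among 21 (median -0.12), with Col6a3 up from 132, 131 and 125 to 386, 389.8 and 411 FPKM and Col1a2 down from 581, 569 and 536 to 333, 359.8 and 369.6 FPKM (log2 1.6 ± 0.052 and -0.68 ± 0.056 SE).

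The actin cytoskeleton moved against this trend. 11 (37.9%) of 29 contractile and actin genes rose and 1, Myh10, fell (median 0.38). Acta2, smooth muscle actin, read 22.8, 21.2 and 25.2 FPKM on day 1 and 142, 154 and 149 FPKM on day 3 (log2 2.67 ± 0.068 SE, edgeR adjusted p = 1.2e-12), and Actg2 rose from 1.27, 1.67 and 0.88 to 21.2, 20.2 and 20.1 FPKM (log2 3.98 ± 0.15 SE). Actin genes share long stretches of sequence, and how reads matching several of them were counted is not given in the sources used here. Wnt and TGF-β genes fell more often than they rose, with 10 against 4 of 24 and 11 against 3 of 31. Wisp2, a Wnt-induced secreted protein, read 73.6, 73.9 and 79.5 FPKM on day 1 and 9.88, 11.8 and 10.9 FPKM on day 3 (log2 -2.81 ± 0.072 SE, edgeR adjusted p = 1.2e-12). Tgfbi, a TGF-β-induced matrix protein, read 67.8, 69.4 and 68.1 FPKM on day 1 and 9.21, 11.3 and 9.8 FPKM on day 3 (log2 -2.77 ± 0.073 SE, edgeR adjusted p = 1.6e-12).

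Mitosis genes fell almost as a whole. 71 (95.9%) of 74 mitosis genes fell, none rose, and the median log2 fold change was -1.22. The 3 that were not called were Bub3, Mybl2 and Cks1b, each with a negative log2 fold change (-0.28, -0.17 and -0.33). Cenpf, a kinetochore protein, read 19.3, 20.2 and 18.3 FPKM on day 1 and 3.73, 3.69 and 3.63 FPKM on day 3 (log2 -2.4 ± 0.064 SE, edgeR adjusted p = 1.8e-12). Mki67, the proliferation marker, read 57.2, 58.4 and 59.1 FPKM on day 1 and 21.6, 22.8 and 23.3 FPKM on day 3 (log2 -1.38 ± 0.054 SE, edgeR adjusted p = 7.7e-11). Cenpe, a kinetochore motor, read 24.1, 26.1 and 24.7 FPKM on day 1 and 7.03, 6.24 and 6.63 FPKM on day 3 (log2 -1.93 ± 0.067 SE, edgeR adjusted p = 2.6e-11). Mitotic transcripts were therefore reduced without being lost. Genes of DNA replication and the S phase fell less uniformly, with 21 (35.6%) of 59 called lower and 2, Ccne1 and E2f2, called higher (median -0.37). Pole and Pola1, catalytic subunits of replicative polymerases, fell from 18.8, 19.1 and 18.2 to 7.19, 7.39 and 7.24 FPKM and from 18.4, 20.1 and 18.2 to 7.94, 7.2 and 6.57 FPKM (log2 -1.38 ± 0.058 and -1.399 ± 0.079 SE). Among cyclins, CDKs and their inhibitors 2 rose and 6 fell of 23. The inhibitor p27, Cdkn1b, fell from 55.95, 60.2 and 54.3 to 24.3, 24.3 and 24.03 FPKM and the inhibitor p21, Cdkn1a, rose from 52.8, 58.3 and 61.6 to 86.8, 87.4 and 89.3 FPKM (log2 -1.24 ± 0.062 and 0.597 ± 0.062 SE).

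The mitosis and S-phase lists also differed in the letters upstream of their genes. RefSeq promoter windows (250 bases before and 50 after the annotated start, GRCm38.p6) were found for 62 of 74 mitosis genes and 48 of 59 S-phase genes. The CHR element (TTTGAA or, on the other strand, TTCAAA) was present in 66.1% of the mitosis windows and 14.6% of the S-phase windows, and the CCAAT box (CCAAT or ATTGG) in 72.6% and 58.3%. Both elements stood together in 54.8% of mitosis windows, 8.33% of S-phase windows and 7.12% of all 27025 windows. An E2F word (TTTGGCGC or TTTCGCGC, either strand) was found in 6.45% of mitosis windows, 22.9% of S-phase windows and 0.833% of all. CHR and CCAAT words alone are common, at 18.1% and 37.9% of all windows. The 27025 windows include those of genes not tested here, so they are not a background matched for expression. These are matches of letters and not bound sites. The same shares could not be read for the genes called higher or lower, since fewer than 80% of them had a window (74.8% and 72.8%). The 150 bases before the start are shown for the 3 called mitosis genes with the smallest p that held both elements there. They are also shown for the 2 S-phase genes, taken only from those not called, with the largest p that held an E2F word. Not every chromosome entered this choice, and examples chosen by their p and call do not stand for their lists. Capitals mark the CCAAT box and CHR in the first 3 and E2F in the last 2, other matches are left in lower case, and the E2F words of Mcm6 overlap.
Ncapd2, chr6:125191587-125191736, minus strand, log2 fold change -1.39: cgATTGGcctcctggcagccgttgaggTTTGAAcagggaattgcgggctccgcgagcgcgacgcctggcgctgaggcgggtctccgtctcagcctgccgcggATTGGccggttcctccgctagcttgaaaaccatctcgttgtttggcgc
Mki67, chr7:135716380-135716529, minus strand, log2 fold change -1.38: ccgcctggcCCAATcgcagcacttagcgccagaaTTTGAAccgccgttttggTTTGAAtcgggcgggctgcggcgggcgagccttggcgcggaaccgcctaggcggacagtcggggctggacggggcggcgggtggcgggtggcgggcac
Ckap2l, chr2:129297213-129297362, minus strand, log2 fold change -1.30: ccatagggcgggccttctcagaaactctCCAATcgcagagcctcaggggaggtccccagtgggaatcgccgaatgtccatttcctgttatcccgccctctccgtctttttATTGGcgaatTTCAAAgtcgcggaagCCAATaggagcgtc
Orc1, chr4:108579304-108579453, plus strand, log2 fold change -0.13, not called: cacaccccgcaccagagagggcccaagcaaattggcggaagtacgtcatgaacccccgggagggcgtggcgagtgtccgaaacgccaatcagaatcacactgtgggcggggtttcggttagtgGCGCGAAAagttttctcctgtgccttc
Mcm6, chr1:128359706-128359855, minus strand, log2 fold change 0.17, not called: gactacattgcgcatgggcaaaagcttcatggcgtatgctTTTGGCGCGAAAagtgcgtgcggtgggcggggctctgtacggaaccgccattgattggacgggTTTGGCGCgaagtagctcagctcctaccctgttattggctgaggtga
Counted from the start, the first base of the CCAAT box of Mki67 was at -141 and those of its CHR words at -116 and -98, and in Ckap2l the CHR word began at -30, between CCAAT boxes at -122, -40 and -14.

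Interferon and inflammatory genes fell together. 37 (78.7%) of 47 interferon-stimulated genes tested fell and 2 rose, at a median of -1.31. Ifit1, an RNA-binding antiviral protein, read 8.66, 10.4 and 11.5 FPKM on day 1 and 1.56, 1.42 and 1.31 FPKM on day 3 (log2 -2.85 ± 0.12 SE, edgeR adjusted p = 2.1e-10). Ifitm3, a membrane protein that restricts virus entry and the more abundant of the pair, read 479, 427 and 475 FPKM on day 1 and 182, 212 and 205 FPKM on day 3 (log2 -1.22 ± 0.068 SE, edgeR adjusted p = 2.4e-09). Of 18 chemokines and cytokines 12 (66.7%) fell and 2 rose (median -1.399, the lowest of the lists of biology). Cxcl1, a neutrophil attractant, read 47.1, 56.5 and 48.1 FPKM on day 1 and 5.53, 7.38 and 7.05 FPKM on day 3 (log2 -2.93 ± 0.11 SE, edgeR adjusted p = 5.4e-11), and Cxcl5 and Il6 fell (log2 -4.71 ± 0.29 and -3.81 ± 0.22 SE) to under 0.5 FPKM in every day 3 library.

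Sterol metabolism, ribosome production and the clock made up smaller blocks. 13 of 28 genes of cholesterol synthesis and uptake rose and 2 fell (median 0.33). Scarb1, the HDL receptor, rose from 6.84, 6.95 and 7.47 to 39.1, 44.2 and 44.2 FPKM (log2 2.57 ± 0.069 SE, edgeR adjusted p = 1.9e-12). Insig1, the sterol-sensing regulator, rose from 12.4, 12.3 and 12.7 to 32.7, 33.1 and 33.2 FPKM (log2 1.39 ± 0.06 SE, edgeR adjusted p = 1.9e-10). LXR targets gave 7 rises and 3 falls among 14 (median 0.56), with Apoe up and Arl4c down (log2 2.505 ± 0.12 and -2.08 ± 0.105 SE). 24 of 50 nucleolar ribosome biogenesis genes rose and none fell (median 0.47), Nop2 from 62.4, 60.4 and 64.3 to 113, 121 and 121 FPKM (log2 0.91 ± 0.055 SE). The cytosolic ribosomal proteins themselves stood still by comparison, with no rise and 1 fall among 77 (median 0.034). That fall was Rps18, at 2.62, 2.49 and 2.6 and 1.5, 1.75 and 2.01 FPKM, whose reads can be split with copies elsewhere in the genome and whose level is uncertain. Clock genes gave 9 rises and 2 falls among 19. Among arginine methyltransferases and their partners 4 of 14 rose and none fell: besides Prmt1 these were Prmt5, its cofactor Wdr77, and Jmjd6 (log2 0.54 ± 0.058, 0.85 ± 0.062 and 0.61 ± 0.058 SE).

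Lists of stress and glucose use mostly held both rises and falls, beside 19.0% of all genes called higher and 17.4% called lower. Glycolysis had 4 rises (17.4%) and 3 falls (13.0%) among 23, no more than these shares (median 0.017). Ldhb rose from 37.2, 32.9 and 40.03 to 141, 158 and 156 FPKM (log2 2.04 ± 0.074 SE). Hk2, hexokinase 2, rose from 8.98, 9.7 and 8.95 to 20.8, 19.5 and 20.6 FPKM (log2 1.13 ± 0.064 SE). ATF4 targets and amino acid synthesis leaned downward, with 11 falls (30.6%) and 4 rises (11.1%) among 36 (median -0.34). Aldh1l2, a mitochondrial folate enzyme, read 32.7, 35.3 and 33.2 FPKM on day 1 and 10.9, 11.5 and 11.2 FPKM on day 3 (log2 -1.604 ± 0.059 SE, edgeR adjusted p = 4.1e-11). Trib3, a pseudokinase induced by stress, read 44.5, 48.9 and 50.5 FPKM on day 1 and 20.8, 20.8 and 23.4 FPKM on day 3 (log2 -1.16 ± 0.07 SE, edgeR adjusted p = 5.9e-09), whereas the serine hydroxymethyltransferase Shmt1 rose (log2 1.501 ± 0.069 SE). In the p53 pathway 4 rose and 4 fell of 28. Among aminoacyl-tRNA synthetases 2 rose and none fell of 20. Among chaperones of the unfolded protein response 2 rose and 1 fell of 24. Among NRF2 and glutathione genes 9 rose and 6 fell of 30. Among complement genes 2 rose and 1 fell of 9.

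Some markers of other cell types were at or near 0, and other members of the same lists were detected or rose. Of the macrophage list Adgre1, Ptprc and Tyrobp were at 0 or, in 1 library, 0.01 FPKM, and of the muscle list Myod1, Myf5, Myf6 and Pax7 were at 0 in all 6 siPRMT1 libraries. The endothelial markers Tie1, Cldn5 and Erg were at 0 apart from 0.01 FPKM in 1 library, and Pecam1, the only one of 9 to pass the filter, rose from 0.10, 0.11 and 0.14 to 0.46, 0.33 and 0.43 FPKM (log2 1.77 ± 0.26 SE). Summed over a day, the endothelial Vwf went from 27 to 10 counts and Emcn from 7 to 18. Of the macrophage list Mrc1 went from 4 to 26 counts and Lyz2 from 25 to 10. Of the markers that passed the filter, 1 of 4 macrophage genes rose (Csf1r, to at most 0.37 FPKM) and 1 fell (Itgam), 3 of 3 muscle genes and 4 of 4 epithelial genes rose, and 1 of 3 osteoblast and chondrocyte genes rose and 1 fell (Phex). Acta1, skeletal muscle actin, went from 0.05, 0.07 and 0.13 to 5.43, 5.0 and 5.94 FPKM (log2 5.93 ± 0.23 SE, edgeR adjusted p = 7.2e-11). Des, desmin, rose from 0.73, 0.75 and 0.70 to 3.54, 4.0 and 3.85 FPKM (log2 2.37 ± 0.11 SE). Alpl, alkaline phosphatase, rose from 1.03, 0.93 and 1.01 to 4.82, 4.22 and 4.15 FPKM (log2 2.13 ± 0.11 SE). The keratins Krt8, Krt14 and Krt19 rose as well (log2 6.68 ± 0.301, 5.32 ± 0.21 and 0.83 ± 0.094 SE), Krt8 from 7 to 742 counts. Krt18 had no count on day 1 and 85 on day 3, at least 29.2-fold higher. The epithelial genes Epcam and Cdh1 were at no more than 0.02 FPKM in any siPRMT1 library.

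Set beside the course in siCtrl cells, which shares no library with it, the siPRMT1 course was not called different for most genes. In siCtrl cells 3141 of 13829 genes tested (22.7%) were higher on day 3 and 2828 (20.4%) lower (3435 and 3203 of 14175 without replicate 3 of day 1). Across the 13669 genes tested in both, the log2 fold changes had a Pearson correlation of 0.92 and a least squares slope of the siPRMT1 on the siCtrl course of 0.81. The slope is lowered by error in the siCtrl values, and the reverse regression, read as its inverse, gave 0.97 and the ratio of the standard deviations 0.89. Genes are not replicates, and these are descriptions with no p. Of 3039 genes that rose in siCtrl cells 2151 (70.8%) also rose in siPRMT1 cells and 15 fell. Of 2815 that fell there 1857 (66.0%) fell here and 5 rose. Conversely, 82.2% of the genes that rose in siPRMT1 cells rose in siCtrl cells and 79.2% of those that fell also fell there. The adipocyte markers had equal medians in both courses, 6.79 and 6.79, and none of the 9 was called in the test of the difference of courses, with or without replicate 3 of siCtrl day 1. A course is a ratio of days, so a level lowered alike on both days would leave it unchanged. Levels of the same day were not tested between siPRMT1 and siCtrl cells. Ratios of markers near 0 on day 1 were also imprecise. Adipoq, with 7 counts on day 1 in siPRMT1 cells, had a difference of 1.337 (edgeR adjusted p = 0.106) and was not called. Equal medians therefore do not show that Prmt1 depletion left differentiation unchanged. With all libraries, other lists of fat metabolism differed in both directions. Medians were smaller in siPRMT1 cells for de novo lipogenesis (0.57 against 0.86), lipid droplet proteins (0.92 against 1.31) and cholesterol synthesis (0.33 against 0.58). They were also smaller for fatty acid uptake (0.673 against 0.955) and triglyceride synthesis (2.16 against 2.36). They were slightly larger for lipases (2.85 against 2.79), fatty acid oxidation (0.73 against 0.70) and peroxisomes (0.78 against 0.71). Adipokines were near equal (1.358 against 1.364). Without replicate 3 of siCtrl day 1 the siCtrl medians of these lists were 2.77, 0.77, 0.83 and 1.47. Only the lipases then kept a larger median in siPRMT1 cells, so the larger medians of fatty acid oxidation and peroxisomes depended on that library. In the test of the difference 2 of 22 lipogenesis genes and 4 of 28 cholesterol genes had a more negative course (7 and 8 without that replicate) and none a more positive one. Of 14 droplet proteins 3 had a more negative and 2 a more positive course, with or without it. The share of all genes with a more negative course was 3.47% (6.71% without it).

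**Figure D4:**
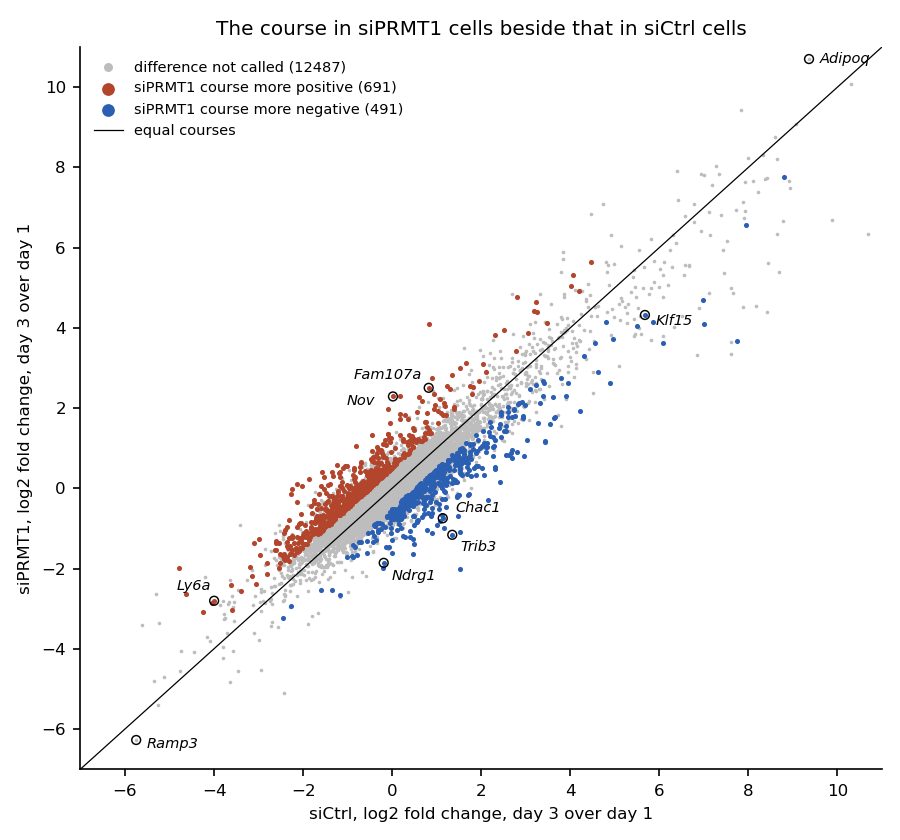
Log2 fold change from day 1 to day 3 in siPRMT1 cells (vertical) against siCtrl cells (horizontal), 1 point a gene for 13669 genes, with the line of equal courses. Coloured points are genes whose courses differed by the test over all 12 libraries (red, siPRMT1 more positive; blue, more negative), and most genes, Adipoq and Ramp3 included, are not among them.

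The difference between the courses was tested over all 12 libraries (edgeR, interaction of siRNA and day). Of 14612 genes 697 (4.77%) had a more positive course in siPRMT1 cells and 507 (3.47%) a more negative one. Without replicate 3 of siCtrl day 1, 612 of the 697 (87.8%) and 502 of the 507 (99.0%) were still called. In all, that left 902 more positive and 1005 more negative courses, so the balance of the 2 directions depended on this library. It also depended on the threshold, with 157 more positive and 162 more negative courses at a log2 difference over 1 in all 12 libraries. Among genes that rose in siPRMT1 cells 154 were called steeper than in siCtrl cells and 156 shallower (163 and 281 without it), and among those that fell 112 were steeper and 174 shallower (177 and 219 without it). Chosen instead by their rise in siCtrl cells, 56 were steeper and 357 shallower in siPRMT1 cells (54 and 682 without it), and by their fall, 16 and 437 (35 and 612 without it). Genes chosen by their call in 1 course are chosen on libraries that the difference also uses, which favours a shallower change in the other course, so these counts are a description and do not measure a difference in amplitude.

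Genes of the ATF4 list, which serve amino acid supply under stress, had mostly more negative courses in siPRMT1 cells. 21 of 36 tested members were called so (25 without siCtrl day 1 replicate 3) and none the opposite way, beside 3.47% and 4.77% of all genes, and the list's median was -0.34 here and 0.38 in siCtrl cells. In siCtrl cells Trib3 rose, from 14.5, 14.8 and 17.6 to 41.96, 42.7 and 40.9 FPKM, where it fell in siPRMT1 cells (difference -2.502 ± 0.12 SE, edgeR adjusted p = 6.2e-08). Chac1, a glutathione-degrading enzyme, fell from 17.99, 19.9 and 19.9 to 11.3, 12.1 and 11.3 FPKM here and rose from 7.79, 6.87 and 8.93 to 18.02, 18.3 and 18.1 FPKM there (difference -1.88 ± 0.14 SE, edgeR adjusted p = 3.3e-06). For Trib3 and Chac1 the siPRMT1 level was above the siCtrl level on day 1 and below it on day 3. Slc6a9, a glycine transporter, fell from 14.2, 13.96 and 16.1 to 5.81, 6.84 and 6.44 FPKM and in siCtrl cells went from 4.98, 5.42 and 5.67 to 7.4, 7.29 and 7.47 FPKM (difference -1.61 ± 0.12 SE, edgeR adjusted p = 3.3e-06), so that its day 3 levels were near each other.

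Matrix genes leaned the other way. 17 of 47 tested had a more positive course in siPRMT1 cells (15 without siCtrl day 1 replicate 3) and none a more negative one. Of these 17, 12 fell in siCtrl cells, and 5 of the 12 also fell, by less, in siPRMT1 cells. Lox, lysyl oxidase, fell from 132, 131 and 119.8 to 48.5, 52.8 and 48.2 FPKM here and from 159, 162 and 147 to 29.8, 25.96 and 25.4 FPKM in siCtrl cells (difference 1.24 ± 0.1 SE, edgeR adjusted p = 4.2e-06). Dcn, the proteoglycan decorin, went from 119, 116 and 118 to 85.4, 95.3 and 81.6 FPKM here, not called, and from 123, 125 and 109 to 38.97, 33.99 and 32.8 FPKM there (difference 1.39 ± 0.11 SE, edgeR adjusted p = 3.3e-06). Of the 8 preadipocyte markers Ly6a, Pdgfra and Col3a1 were in this class too. Their log2 changes were -3.999, -2.005 and -1.07 in siCtrl cells against -2.804, -1.16 and -0.52 in siPRMT1 cells. Dlk1, Thy1, Pdgfrb, Cd34 and Col1a1 were not called in this test (differences 0.12, 0.03, 0.32, 0.81 and 0.36, edgeR adjusted p from 0.112 to 0.945). On day 3 Ly6a read 54.5, 56.9 and 48.8 FPKM in siPRMT1 and 24.6, 25.1 and 31.96 FPKM in siCtrl cells, Pdgfra 25.98, 27.2 and 26.6 against 18.2, 16.9 and 17.2 FPKM, and Col3a1 317, 344 and 342 against 245, 251 and 244 FPKM. Ribosomal protein genes gave 15 more positive courses (14 without that replicate; 13 more positive and 1 more negative with RLE scaling) and no more negative one of 77, with medians of 0.034 here and -0.28 in siCtrl cells. Glycolysis had 6 more negative courses (8 without that replicate) of 23, Hk2 among them (log2 1.13 here and 2.14 in siCtrl cells).

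A few single genes had courses of their own. Nov, a secreted matricellular protein, rose from 1.09, 1.2 and 1.34 to 5.78, 6.54 and 5.57 FPKM in siPRMT1 cells and stayed between 2.38 and 3.31 FPKM in siCtrl cells (difference 2.28 ± 0.19 SE, edgeR adjusted p = 4.4e-06). Ndrg1, which responds to stress and hypoxia, fell from 4.39, 4.07 and 4.34 to 1.38, 1.1 and 1.09 FPKM, against 2.83, 3.04 and 3.25 and 3.55, 2.66 and 2.19 FPKM in siCtrl cells (difference -1.66 ± 0.22 SE, edgeR adjusted p = 2.4e-04). Of the adipogenic factors only Klf15 and Klf4 were called, Klf15 with the shallower rise (siCtrl 0.07, 0.04 and 0.03 to 2.81, 2.9 and 3.02 FPKM, difference -1.34 ± 0.39 SE, edgeR adjusted p = 0.0369) and Klf4 with the steeper fall (difference -0.58 ± 0.14 SE, edgeR adjusted p = 0.0164). Klf15 lost its call when any 1 of 7 of the 12 libraries was left out, with differences between -1.04 (edgeR adjusted p = 0.221, without siPRMT1 day 1 replicate 3) and -1.47 (adjusted p = 0.0543), and Klf4 lost its call without siPRMT1 day 3 replicate 1 (difference -0.46). Pparg and Cebpa were not called, at differences of 0.24 ± 0.089 and 0.44 ± 0.18 SE (edgeR adjusted p = 0.096 and 0.12). Without replicate 3 of siCtrl day 1 these differences were smaller, 0.155 for Pparg and 0.198 for Cebpa (edgeR adjusted p = 0.152 and 0.151). They compare courses and not levels. For levels, the paper reports from the same sequencing that Pparg expression was lower after the knockdown.

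**Figure D5:**
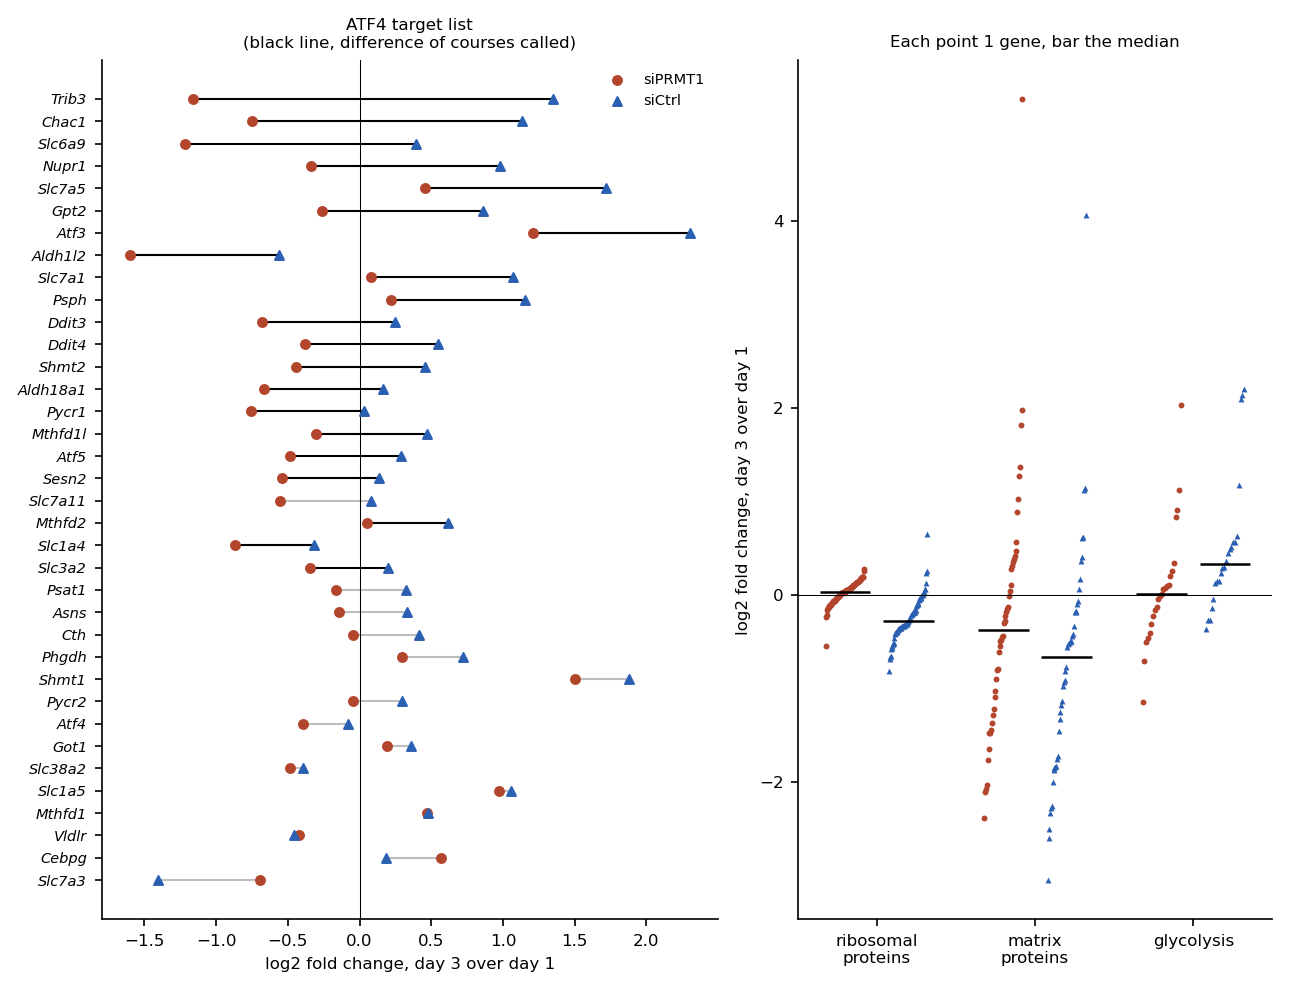
Log2 fold changes from day 1 to day 3 in siPRMT1 and siCtrl cells. Left, the ATF4 target list gene by gene, with black lines where the difference was called. Right, ribosomal protein, matrix and glycolysis genes, 1 point a gene, with bars at the medians of the points drawn. Trib3 and Chac1 lie below 0 in siPRMT1 cells and above 0 in siCtrl cells.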

How the data were processed

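RNA of 3T3-L1 cells was sequenced in 12 libraries, and the 6 siPRMT1 libraries gave the main comparison. The authors deposited whole-number read counts per gene and FPKM for each library in 1 table of 39423 genes. Per the submitters' processing notes, cutadapt 1.11, HISAT2 2.1.0, RSEM 1.2.6 and the mm10 build were used, and the counting settings and strand are not given in the sources used here. FPKM recomputed from the deposited counts and lengths differed from the deposited FPKM by at most 0.005.

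Deposited counts were tested with edgeR 4.0.16 in R 4.3.3 (glmQLFit and glmQLFTest, TMM, filterByExpr by group, Benjamini-Hochberg adjustment over all genes tested). The siPRMT1 and siCtrl courses were fitted apart, and their difference as an interaction over 12 libraries. A call needed both an adjusted p below 0.05 and a log2 fold change beyond 0.5 in either direction. DESeq2 1.42.0, RLE scaling, other filters and thresholds, a replicate block and the omission of each library were alternatives. FPKM served for levels. Rows whose symbol carries a number suffix, 2266 with 0.612% of counts, were kept and not named.

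The members and gene lists were chosen with earlier results of these data known. Named genes were Prmt1 and the adipogenic factors, the 10 largest rises and the 10 largest falls of at least 1 FPKM on average whose days did not overlap, in each list the 4 called members with the smallest p and up to 3 called against the majority, the whole of the adipocyte and preadipocyte marker lists and of lists with at most 12 genes tested, and the 10 genes with the smallest p in each direction of the difference of courses. Agpat2, Dgat1, Lpin1, Pck1, Cav1, Cav2, Ptrf, Mki67, Bub3, Mybl2, Cks1b, Pde4b, Tsc22d3 and Lox lie outside this rule and were chosen after their values were seen. Some genes that the rule takes are not reported here. Fitted fold changes of genes with few counts depend on edgeR's prior count. Promoters and annotation were taken from RefSeq and GENCODE on GRCm38, and a promoter window was found for 10554 of 14224 tested genes (74.2%).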

Additional observations from a re-analysis of the deposited data

Results flagged for a closer look

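The genes below stand here because the test of the difference between the siPRMT1 and siCtrl courses called them (edgeR, interaction of siRNA and day, 12 libraries). Each value is the log2 difference of the courses, siPRMT1 minus siCtrl, with its adjusted p in parentheses, and no explanation was tested. Groups of 3 libraries are too small for a test of single outlying libraries. Without replicate 3 of siCtrl day 1 all 52 were still called in the same direction, at 0.735 to 1.27 times the value given.

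Among genes of amino acid supply and stress, all with a more negative course in siPRMT1 cells, the differences were Trib3 -2.502 (6.2e-08), Chac1 -1.88 (3.3e-06), Slc6a9 -1.61 (3.3e-06), Aldh1l2 -1.03 (2.6e-05), Ppp1r15a -1.39 (1.2e-04), Atf3 -1.08 (0.039) and Ndrg1 -1.66 (2.4e-04).

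Among secreted, matrix and precursor genes and those called with the smallest p for a course that was more positive in siPRMT1 cells, they were Dcn 1.39 (3.3e-06), Lox 1.24 (4.2e-06), Fbln5 0.67 (6.9e-04), Col1a2 0.69 (1.4e-04), Col3a1 0.56 (3.0e-04), Ccdc80 0.79 (7.7e-05), Fstl1 0.94 (3.3e-06), Timp4 1.24 (0.011), Pdgfra 0.86 (1.7e-05), Ly6a 1.2 (6.9e-05), Nov 2.28 (4.4e-06), Ptn 1.32 (3.3e-06), C1s1 1.397 (3.3e-06), Clca3a1 1.52 (3.3e-06), Cdo1 1.32 (3.3e-06), Fam107a 1.69 (4.0e-05), Rgs16 1.48 (1.0e-04) and Mertk 1.04 (1.3e-04).

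Genes of lipid, sterol and fuel metabolism with a more negative course were Gpd1 -1.396 (0.00288), G0s2 -1.05 (0.0347), Mgll -1.22 (0.00216), Scd1 -0.82 (7.8e-05), Scarb1 -0.65 (0.00642), Insig1 -0.77 (9.7e-05), Hk2 -1.004 (4.0e-05) and Bcat1 -0.84 (7.7e-04), and those with a more positive course were Fabp5 0.66 (0.00235), Ces1f 0.65 (0.00359) and Cav2 0.65 (0.0384).

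Regulators of transcription, signalling and the cell cycle had differences of Klf15 -1.34 (0.0369), Klf4 -0.58 (0.0164), Dusp4 -1.59 (1.6e-05), E2f2 -0.88 (0.00308), Mybl2 -0.56 (0.0106) and Jmjd6 -0.62 (0.00155).

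The remaining genes with a more positive course were Acta2 0.73 (0.00273), Ifitm3 0.802 (0.00183), Pdp1 1.06 (9.2e-05) and Wnt6 1.22 (0.0102), and those with a more negative course were 1810011O10Rik -1.58 (4.2e-05), Arhgef2 -0.81 (5.9e-05), Gramd1b -1.33 (3.3e-06), Alpl -1.18 (0.00568), Cxcl1 -0.65 (0.0164) and Krt19 -1.73 (3.8e-05).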

How the results depend on the processing

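The siPRMT1 course gave 2667 genes higher and 2351 lower with DESeq2, 2692 and 2492 with RLE scaling, 3203 and 2912 with no filter on low counts, 2189 and 2183 with at least 10 counts in every library, 2799 and 2424 with all 12 libraries in 1 model, and between 2672 and 2749 higher and between 2445 and 2535 lower when each library was left out in turn. The counts moved by over 1.5 times with the threshold on the fold change, to 4583 and 4431 with none and to 1280 and 1069 at a log2 fold change over 1. At that threshold 158 of 1138 genes of the lists were called higher and 173 lower, against 325 and 277 at a log2 of 0.5. With a replicate block the counts were 2705 and 2488. The deviations of libraries with the same number did not go together (correlations of -0.032, -0.161 and 0.095), and not every library correlated best with its own number. Deviations from the mean of only 3 libraries a day cannot tell whether libraries of the same number shared a culture.

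The difference of the courses was the less settled result. With no threshold on the fold change 1123 genes had a more positive and 676 a more negative course, and at a log2 difference over 1, 157 had a more positive and 162 a more negative one. Leaving out each library in turn gave between 504 and 902 more positive and between 305 and 1005 more negative courses. The second count was 1005 without siCtrl day 1 replicate 3, 305 without siPRMT1 day 1 replicate 3 and 310 without siCtrl day 3 replicate 2, and the cause was not tested. Under the block they were 656 and 453, and with no filter on low counts 983 and 505. The slope of the siPRMT1 on the siCtrl course was 0.832 over genes of at least 10 CPM. Settings added after the data were seen gave 0.868 over genes called in siPRMT1 cells, 0.784 without siCtrl day 1 replicate 3, 0.970 as the inverse of the reverse regression and 0.888 as the ratio of the standard deviations.

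Of 3134 refits of the siPRMT1 course of 264 named genes, 3090 kept the direction and the call, 37 lost the call, 6 gained it and 1 changed sign (Egr2, not called in any, from -0.054 to 0.326 when each library was left out). Those that did not always keep the call included Cebpd, Dcn, Id1, Rps18 and Zfp467. Of 441 refits of the difference for 26 named genes 432 kept the call or its absence, and the 9 that lost it were those of Klf15 (8, the replicate block among them) and Klf4 (1). At 21572263 to 26878683 counts a library, genes such as Lep, Pck1 and Krt18 could be set only against the limit that a count of 0 allows on day 1.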
